A study of Homo sapiens with 4 samples.

Results

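The clustered protocadherin genes are 3 neighbouring groups of adhesion genes, alpha, beta and gamma, on human chromosome 5. Their promoters were taken from a table of ATAC-seq counts as the rows whose Entrez gene identifier belongs to a chromosome 5 symbol beginning with PCDHA, PCDHB or PCDHG followed by a digit, A, B or C, with pseudogenes left out. The rule found 54 of 28775 promoters. They comprised 15 alpha, 16 beta and 22 gamma genes, plus PCDHB1-AS1, an antisense non-coding RNA gene that met the rule by its symbol alone. The rule used names only and no measured value. ATAC-seq marks open DNA by the cuts of a transposase, and accessibility here means the count deposited for each promoter, which the study defines as a window of 2 kb around the transcription start site. All 4 libraries came from HEK293T, an established human embryonic kidney line carrying the SV40 large T antigen, with its own MORC2 gene intact. The control group (n = 2) was given the transfection reagent lipofectamine. The overexpression group (n = 2) was transfected with MORC2, an ATPase that compacts DNA, which by the methods of the study was fused to a monomeric green fluorescent protein and expressed for 72 h. Whether an empty plasmid was given to control cells is not stated, nor whether libraries of a group came from separate cultures. The p-values therefore measure only the spread between these libraries, which may be technical and which the main fit pooled over promoters. Accessibility of the MORC2 promoter in the genome does not measure the transfected copy, so its counts (257, 162, 87 and 42 in control 1, control 2, overexpression 1 and overexpression 2) do not check the overexpression.

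Clustered protocadherins are cell surface proteins of the cadherin superfamily, which bind the same isoform on a neighbouring cell. In the alpha and gamma clusters each variable gene is an alternative first exon with its own promoter, spliced to constant exons shared by the cluster, whereas each beta gene is a single exon. A neuron switches on only some of these promoters, by a choice that involves CTCF and cohesin bound at the promoters and at distant enhancers, and the combination gives the cell a surface identity used in self-avoidance of dendrites and axons. The C-type genes (PCDHAC1, PCDHAC2, PCDHGC3, PCDHGC4 and PCDHGC5) stand at the ends of the alpha and gamma clusters and are less subject to random choice.

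Promoter sequences were looked up in RefSeq (GRCh38.p14, 250 bases before to 50 after the annotated start) and found for 47 of the 54 members. No entry was matched for PCDHA3, PCDHA13, PCDHB1-AS1, PCDHB6, PCDHB11, PCDHGA12 and PCDHGC5. The 4 letters CGCT, the core of an element known from clustered protocadherin promoters and called the box below wherever they match, stood on the gene's strand between 30 and 110 bp before the start in 43 of 47 members (91.5%), against 23.8% of 27305 promoters of all genes. This window was set after the positions had been seen. The 30-base stretches around the box, with CGCT in capitals, are given below for alpha, beta and gamma genes whose accessibility is described later, because the letters around the box often differ between the clusters. A match of 4 letters is only a description, and PCDHAC1, PCDHAC2 and PCDHB1 match in these letters alone, without the longer words that follow. PCDHGA11 also holds none of those words, but it holds GCGCCGCT, which 10 of 20 gamma promoters hold. All stretches lie on the plus strand.
PCDHA1 (chr5:140786089-140786118): ggccacatgatgtCGCTgtacaccacaaag
PCDHA5 (chr5:140821545-140821574): atccacatgatgtCGCTggacaccggaagg
PCDHA8 (chr5:140841133-140841162): agccacatgatgtCGCTgtctaccaagaag
PCDHB1 (chr5:141051277-141051306): tggggagttgagtCGCTcaatgcaaatttt
PCDHB3 (chr5:141100396-141100425): gaacgcatggtggCGCTgttgactaagaag
PCDHB12 (chr5:141208646-141208675): agacgcgtggtggCGCTgcaggataatatc
PCDHGA2 (chr5:141338706-141338735): ggcctctgagcgtCGCTgttgaccacctaa
PCDHGA7 (chr5:141382652-141382681): ggactcacagcgcCGCTgttcaccaaccag
PCDHGA11 (chr5:141420975-141421004): gggctctaggcgcCGCTgctcaccaatcag
PCDHAC1 (chr5:140926223-140926252): tagaaggtgtggtCGCTcacgttcaccgtc
PCDHAC2 (chr5:140966422-140966451): tgagccctcctacCGCTccctttccccctc
PCDHGC4 (chr5:141484955-141484984): tgagcccgggagcCGCTgtctgccaatcgg

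The letters around the box were partly particular to a cluster and partly shared. The word ATGTCGCT was held by 9 of 13 alpha promoters with a sequence and by 0.161% of all promoters. The word GTGGCGCT was held by 13 of 14 beta promoters, all but PCDHB1, and by 0.626% of all promoters. The word GTCGCTGT was shared by the alpha and gamma clusters, with 11 of 47 members, PCDHA1, PCDHA8 and PCDHGA2 among them, against 0.348% of all promoters. The word GCCGCTGT was held by 11 of 20 gamma promoters, PCDHGC3 and PCDHGC4 among them, and by 0.894% of all promoters. Words of 8 letters were searched on the gene's strand, these 4 were among the most widely held in a cluster or over all members, and words of a cluster overlap each other. The box nearest to the start lay from 38 to 95 bp upstream, with a median of 55 bp, and the 4 members without a box in that window were PCDHA9, PCDHB5, PCDHB8 and PCDHGB2.

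**Figure D1:**
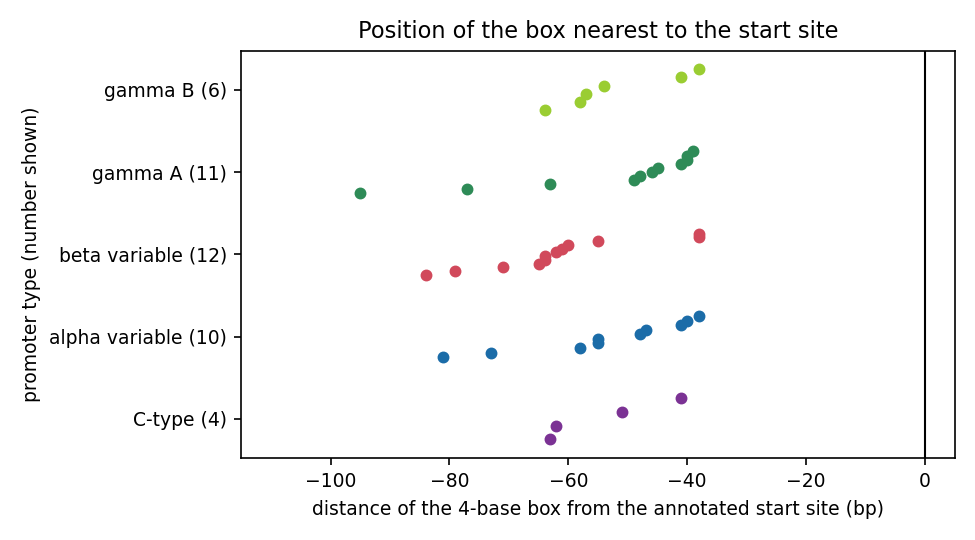
Distance (bp) of the box nearest to the annotated start site in 43 clustered protocadherin promoters, 1 point each, with the promoter types as rows and the start at 0. Points of every type lie between 38 and 95 bp upstream, and the vertical offset within a row only separates points.

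Other letters were not shared in this way. The TATA box TATAAA, on either strand, occurred in 6 of 47 members (12.8%) and 12.0% of all promoters. The CTCF core motif with at most 2 mismatches, on either strand, occurred in 8 of 47 members (17.0%) and 32.7% of all promoters. That is a match of letters only, not a count of CTCF sites, and CTCF binding was not measured. GC content had a median of 39.7% over the members (range from 32.3% to 66.0%) and 58.3% over all promoters, and the median number of CpG pairs was 7 against 13. The 4 C-type promoters with a sequence stood apart, with 59.0% to 66.0% GC and 15 to 27 CpG pairs. The contrast is shown by the 250 bases upstream of the start for the members with the highest and the lowest control accessibility, PCDHAC1 and PCDHB8, with CpG pairs in capitals.
PCDHAC1 (chr5:140926049-140926298): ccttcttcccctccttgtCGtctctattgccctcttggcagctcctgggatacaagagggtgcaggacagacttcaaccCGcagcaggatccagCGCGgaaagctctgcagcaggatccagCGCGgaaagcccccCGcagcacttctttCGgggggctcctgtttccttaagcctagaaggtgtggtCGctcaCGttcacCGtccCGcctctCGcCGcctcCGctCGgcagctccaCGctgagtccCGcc
PCDHB8 (chr5:141177540-141177789): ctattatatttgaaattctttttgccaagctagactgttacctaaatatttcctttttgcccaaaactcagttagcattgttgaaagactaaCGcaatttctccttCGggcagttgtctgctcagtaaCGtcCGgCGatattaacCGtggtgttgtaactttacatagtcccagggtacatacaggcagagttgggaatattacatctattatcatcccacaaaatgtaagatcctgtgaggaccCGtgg
In these 250 bases PCDHAC1 had 18 CpG pairs and 63.2% GC, and PCDHB8 had 7 CpG pairs and 40.4% GC.

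The depth at these promoters was low. Total promoter counts ranged from 7211724 to 10255182 in 3 libraries and were 3734519 in overexpression 2. Mitochondrial promoters took 51.9%, 55.6%, 74.7% and 73.8% of counts in control 1, control 2, overexpression 1 and overexpression 2, which left 4928862, 3675088, 1826951 and 979895 nuclear counts. The 54 members together held 1234, 928, 480 and 278 counts in the same order, which is from 0.0250% to 0.0284% of nuclear counts. The median member had 17, 13, 7 and 4 counts. Levels are given as CPM, counts brought to a common library size with TMM scaling factors. On that scale 1 count was worth 0.0712 and 0.0961 CPM under control but 0.186 and 0.343 CPM under overexpression, so single overexpression values were the coarser. Of the embryonic kidney line genes listed for a check of the label, 5 of 10 lay above the median nuclear promoter, VIM highest at 51.4 CPM. PAX2, EYA1, KRT8, KRT18 and NEFM lay below it, EYA1 lowest at 1.74 CPM. Of all nuclear promoters 14369 of 28738 lay above it, so the share in this list does not check the label. Of 11 markers of other cell types 2 lay above the median nuclear promoter, APOA2 of hepatocytes at 9.77 CPM and MYOD1 of muscle at 8.21 CPM. PTPRC of leukocytes and ALB, the other hepatocyte marker, lay at 0.490 and 0.226 CPM.

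In control cells nearly all clustered protocadherin promoters were among the less accessible of the genome. The median member had 1.26 CPM in control, against 7.04 CPM for the median nuclear promoter, and stood at percentile 23.7 of all nuclear promoters. Levels of different genes are set side by side on windows of the same nominal length, and how much of each window can be mapped uniquely was not tested. In control, 32 of 54 members lay in the lowest 25% of nuclear promoters, 21 between that and the median, and 1, PCDHAC1, above the median. In overexpression these numbers were 41, 13 and 0, with the median member at 1.26 CPM and the median nuclear promoter at 7.64 CPM. The lowest control level was that of PCDHB8, whose sequence is shown above, with 0.356 and 0.673 CPM in control 1 and control 2.

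**Figure D2:**
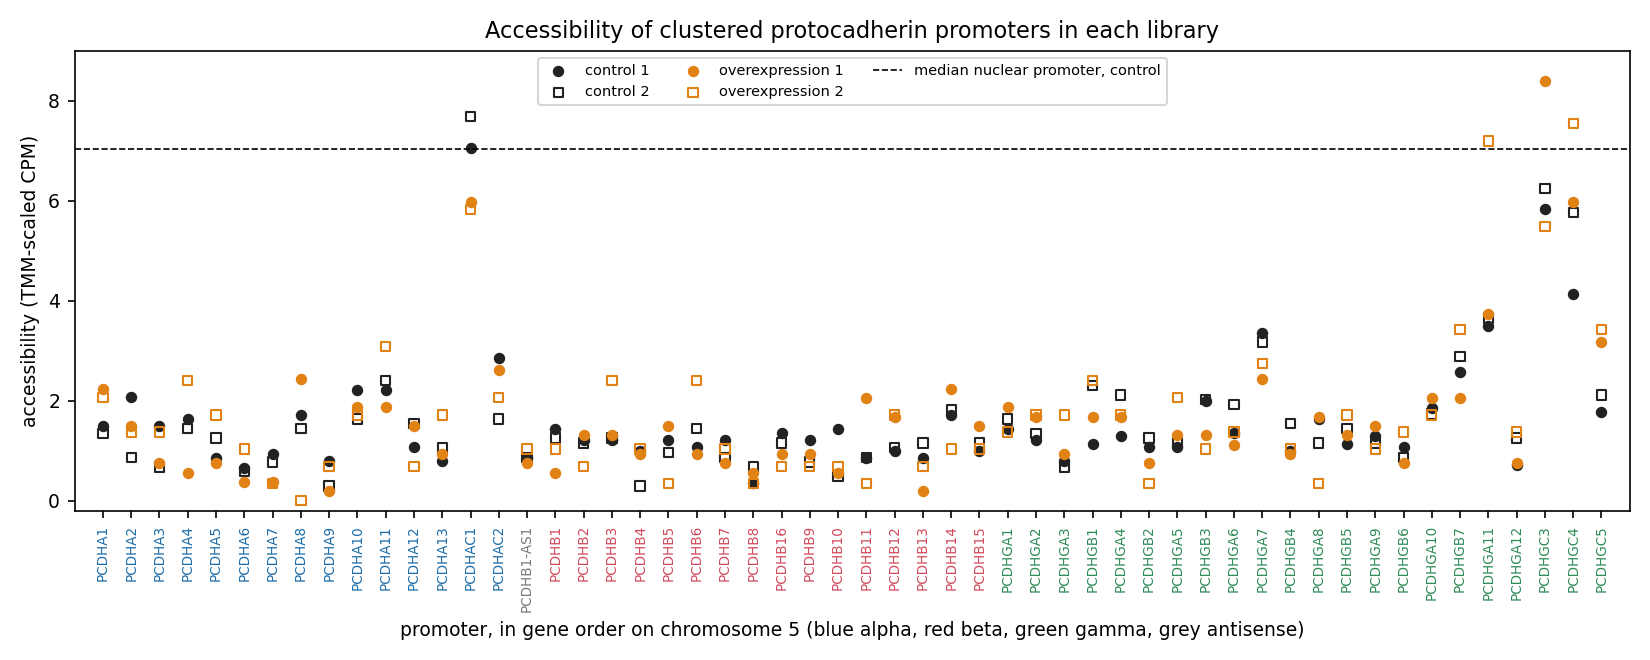
Accessibility (TMM-scaled CPM) of all 54 clustered protocadherin promoters in gene order, with 1 symbol per library (control black, overexpression orange, replicate 1 filled, replicate 2 open) and a dashed line at the control median of all nuclear promoters, 7.04 CPM. Most members lie below 3 CPM in every library, and PCDHAC1, PCDHGC3 and PCDHGC4 lie above 4 CPM in every library.

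By median the C-type promoters were the most accessible group. The 5 genes held from 24.6% to 29.2% of the members' counts in each library. Their median control level was 4.95 CPM, against 1.30 for 13 alpha variable, 1.06 for 16 beta, 1.46 for 12 gamma A and 1.29 for 7 gamma B promoters. PCDHAC2 and PCDHGC5, with control means of 2.24 and 1.95 CPM, lay below the variable genes PCDHGA11 (3.57 CPM) and PCDHGA7 (3.26 CPM). PCDHAC1, the first C-type gene of the alpha cluster, had 99, 80, 32 and 17 counts in control 1, control 2, overexpression 1 and overexpression 2, the order used below. These were 7.05 and 7.69 CPM in control and 5.96 and 5.83 CPM in overexpression. The overexpression values were thus the lower pair, yet the log2 fold change of −0.31 (SE 0.24, 95% interval from −0.78 to 0.17) did not pass the test (edgeR adjusted p = 0.532).

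PCDHGC3, a C-type gene expressed widely beyond neurons, had 5.84 and 6.25 CPM in control and 8.39 and 5.48 CPM in overexpression, from 82, 65, 45 and 16 counts. Its groups overlapped, since 1 overexpression library was the highest and the other the lowest of the 4. The log2 fold change was 0.29 (SE 0.24, edgeR adjusted p = 0.563), and it came to −0.14 without overexpression 1. PCDHGC4, which in mice protects neurons from cell death, had 4.13 and 5.77 CPM in control and 5.96 and 7.54 CPM in overexpression. Both overexpression values were above both control values, by less than the replicates of either group differed, and the log2 fold change was 0.43 (SE 0.26, edgeR adjusted p = 0.382). It ranged from 0.18 without control 1 to 0.66 without control 2.

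PCDHGC5, the last gene of the gamma cluster, had 25, 22, 17 and 10 counts. These were 1.78 and 2.11 CPM in control and 3.17 and 3.43 CPM in overexpression, and the groups did not overlap. Its log2 fold change of 0.76 (SE 0.38, 95% interval from 0.01 to 1.50) was the largest positive one of the members tested, with an unadjusted p of 0.0470 and an edgeR adjusted p of 0.284. It therefore did not pass the threshold. PCDHAC2, which in mice serves the spacing of serotonergic axons, had 2.85 and 1.63 CPM in control and 2.61 and 2.06 CPM in overexpression, where both overexpression values lay between the control values. Its log2 fold change was 0.055 (SE 0.40, edgeR adjusted p = 0.961).

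In the order of control levels, PCDHAC1 (7.37 ± 0.451 CPM, SD, n = 2), PCDHGC3 (6.04 ± 0.288) and PCDHGC4 (4.95 ± 1.16) were followed by 2 variable gamma genes. In overexpression PCDHAC1 lay within the range of PCDHGC3, so the order of these neighbours did not hold there. PCDHGA11 had 3.49 and 3.65 CPM in control and 3.73 and 7.20 CPM in overexpression, from 49, 38, 20 and 21 counts. One overexpression library was level with control and the other was the highest. The log2 fold change of PCDHGA11 was 0.48 (SE 0.30, edgeR adjusted p = 0.400), and it was 1.00 without overexpression 1 but 0.059 without overexpression 2. PCDHGA7 had 3.35 and 3.17 CPM in control and 2.42 and 2.74 CPM in overexpression, so the groups did not overlap. Its log2 fold change was −0.36 (SE 0.37, edgeR adjusted p = 0.644).

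The question of the comparison was whether more MORC2 changes accessibility. A filter for low counts, filterByExpr of edgeR, kept 37 of the 54 members and 23407 of all promoters. It dropped 17 members, namely PCDHA2, PCDHA3, PCDHA6, PCDHA7, PCDHA9, PCDHB1-AS1, PCDHB4, PCDHB5, PCDHB7, PCDHB8, PCDHB9, PCDHB10, PCDHB11, PCDHB13, PCDHGA3, PCDHGB6 and PCDHGA12, so that 8 of the 16 beta genes were not tested. Their counts summed to 245, 134, 74 and 45 in control 1, control 2, overexpression 1 and overexpression 2, or 17.5, 12.9, 13.8 and 15.4 CPM, and the groups overlapped. The range of the overexpression sums lay inside that of the control sums. A filter that needs counts passes a low promoter more readily where a group is high, so counts over the 37 do not describe all 54 members.

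No clustered protocadherin promoter passed the threshold in either direction. By edgeR's quasi-likelihood test with Benjamini-Hochberg adjustment over all promoters, 0 of 37 rose and 0 of 37 fell, beside 1.16% of all promoters tested that rose and 1.30% that fell. At an unadjusted p under 0.05 there was 1 member with a higher value, PCDHGC5, and 0 with a lower one, beside 8.66% and 8.57% of all promoters. DESeq2 had 0 members under an unadjusted 0.05 and gave none of the 37 an adjusted p, and limma-voom had 2, PCDHGC5 higher and PCDHA8 lower, with a smallest adjusted p of 0.161, beside 10.1% of all promoters higher and 8.27% lower at that unadjusted level in limma-voom. The exact permutation test of 2 libraries against 2 cannot give a p below 0.333. The standard errors of the members' log2 fold changes ranged from 0.24 to 0.66 with a median of 0.49, against a median of 0.18 over all promoters, so only large differences were detectable at this depth.

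Both overexpression libraries lay above both control libraries at 8 of 37 members (21.6%), beside 24.8% of all promoters tested. The 8 were PCDHA1, PCDHB3, PCDHB12, PCDHGA2, PCDHGA5, PCDHGA11, PCDHGC4 and PCDHGC5. The reverse held at 6 (16.2%), beside 24.9%, and these were PCDHAC1, PCDHB1, PCDHB16, PCDHGB2, PCDHGB3 and PCDHGA7. Both shares were below those of all promoters, a difference that was not tested. The median log2 fold change of the 37 was 0.055, with 22 above 0 and 15 below, against 0.0099 over all promoters. Scaling by library totals, most of which are mitochondrial, shifted the median of all promoters to −0.78 and that of the members to −0.74, with all 37 below 0 and 9 past the threshold, beside 69.5% of all promoters that fell under that scaling. Relative to the shift of all promoters the members' median was then close to 0, as it was under TMM.

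The alpha genes gave a median log2 fold change of −0.013 over 10 tested, with 5 above and 5 below 0, and a range from −0.35 to 0.60. PCDHA1, the first gene of the cluster, had 1.50 and 1.35 CPM in control and 2.24 and 2.06 CPM in overexpression. Its groups did not overlap, and its log2 fold change of 0.60 (SE 0.45, edgeR adjusted p = 0.509) was the highest of the alpha genes. PCDHA8 had the widest gap between replicates of all members, with 1.71 and 1.44 CPM in control against 2.42 CPM in overexpression 1 and 0 counts in overexpression 2. A count of 0 allows up to 3 counts, or 1.03 CPM, in that library. The log2 fold change of PCDHA8 was −0.031 (SE 0.48, edgeR adjusted p = 0.982), and it was 0.59 without overexpression 2. Its SE came from a spread pooled over promoters and not from the gap between its own replicates.

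PCDHA13 and PCDHA5 were 2 of the 3 least accessible members that were tested. PCDHA13 had 11 counts in each control library and 5 in each overexpression library, which were 0.784, 1.06, 0.932 and 1.71 CPM. The groups overlapped, and the log2 fold change was 0.42 (SE 0.58, edgeR adjusted p = 0.756), with 0.91 without overexpression 1 and 0.039 without overexpression 2. PCDHA5 had 12, 13, 4 and 5 counts, or 0.855, 1.25, 0.746 and 1.71 CPM, with a log2 fold change of 0.087 (SE 0.58, edgeR adjusted p = 0.956). Its overexpression libraries were the lowest and the highest of the 4.

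The beta genes had the lowest median control level of the clusters and a median log2 fold change of 0.14 over 8 tested, with 5 above 0. Without overexpression 1 this median was −0.46 over 14 tested. PCDHB12, the third of the least accessible tested members, had the smallest gap between replicates of all members. It had 0.997 and 1.06 CPM in control and 1.68 and 1.71 CPM in overexpression, from 14, 11, 9 and 5 counts. The groups stood apart, but at these counts the log2 fold change of 0.72 had an SE of 0.51 (edgeR adjusted p = 0.483). PCDHB1, whose box lacks the letters of the other beta genes, had 20, 13, 3 and 3 counts. These were 1.42, 1.25, 0.559 and 1.03 CPM, with the overexpression libraries lower, and the log2 fold change was −0.88 (SE 0.61, edgeR adjusted p = 0.470). It was −0.40 without overexpression 1 and −1.26 without overexpression 2. Its antisense neighbour PCDHB1-AS1 was not tested and had 12, 9, 4 and 3 counts, with overlapping groups, and ATAC-seq counts carry no strand.

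The gamma genes gave a median log2 fold change of 0.11 over 19 tested, with 12 above 0 and 7 below. Among gamma A promoters 7 of 10 were above 0 and among gamma B promoters 2 of 6, with medians of 0.11 and −0.22. That difference was not tested. The lowest log2 fold change of the members tested was that of PCDHGB2, with 1.07, 1.25, 0.746 and 0.343 CPM from 15, 13, 4 and 1 counts (−0.91, SE 0.66, edgeR adjusted p = 0.494). PCDHGB2, named here after its values were seen, was also the gamma promoter with a sequence but no box in the window. It holds the word GTCGCTGT outside that window. The other members without a box there, PCDHA9, PCDHB5 and PCDHB8, were dropped by the filter. A relation between the box and the fold change was not tested.

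**Figure D3:**
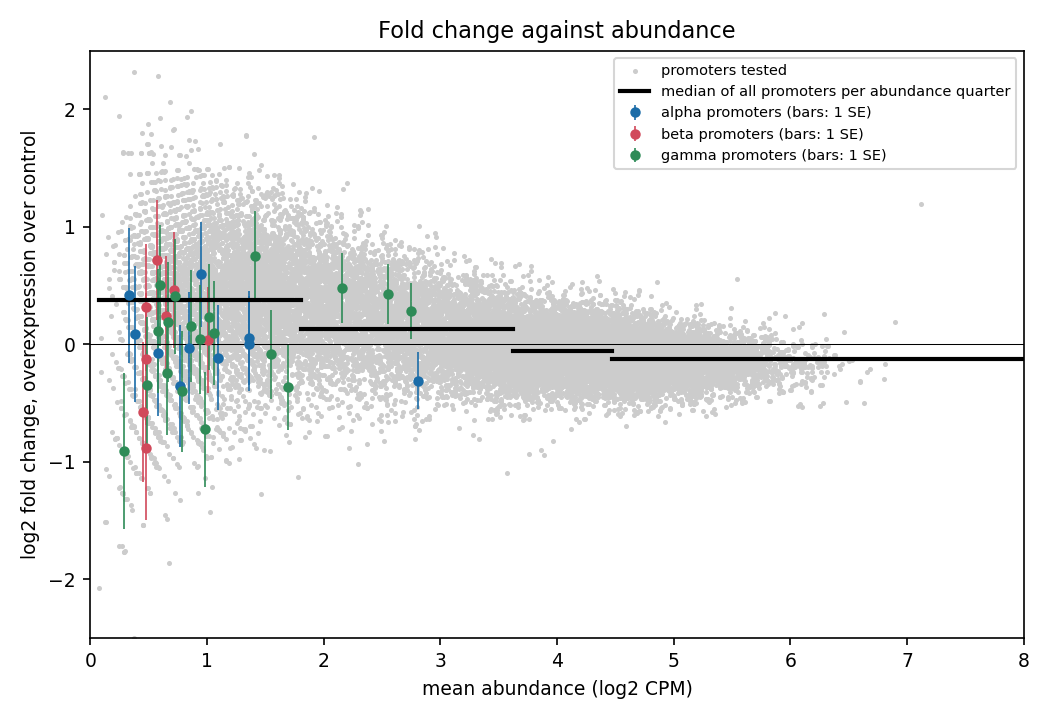
Log2 fold change of overexpression over control against mean abundance (log2 CPM) for promoters tested (grey) and 37 clustered protocadherin promoters (coloured by cluster, bars 1 SE), with black lines at the median of all promoters in each of 4 equal bins of abundance. The axes leave out a few promoters beyond their limits, and 33 of the members lie in the lowest bin, where 26 of them are below the black line at 0.38.

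Summing counts within a cluster lowers the counting error. The alpha sum was 27.8 and 24.6 CPM in control and 23.9 and 26.0 CPM in overexpression, and the groups overlapped. The beta sum was 18.1 and 16.3 CPM in control and 17.9 and 16.1 CPM in overexpression, with each overexpression library next to the control library of like rank. The gamma sum was 41.2 and 47.4 CPM in control and 47.0 and 52.1 CPM in overexpression. For none of the 3 clusters did the groups separate. For the 5 C-type genes the sums were 21.7 and 23.5 CPM in control and 26.1 and 24.3 CPM in overexpression, which did not overlap and differed by 0.16 on the log2 scale, while control 2 exceeded control 1 by 0.12. The sum over all 54 members was 87.9 and 89.2 CPM in control and 89.5 and 95.3 CPM in overexpression, a difference of 0.061 on the log2 scale, smaller than the 0.090 between the overexpression libraries.

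**Figure D4:**
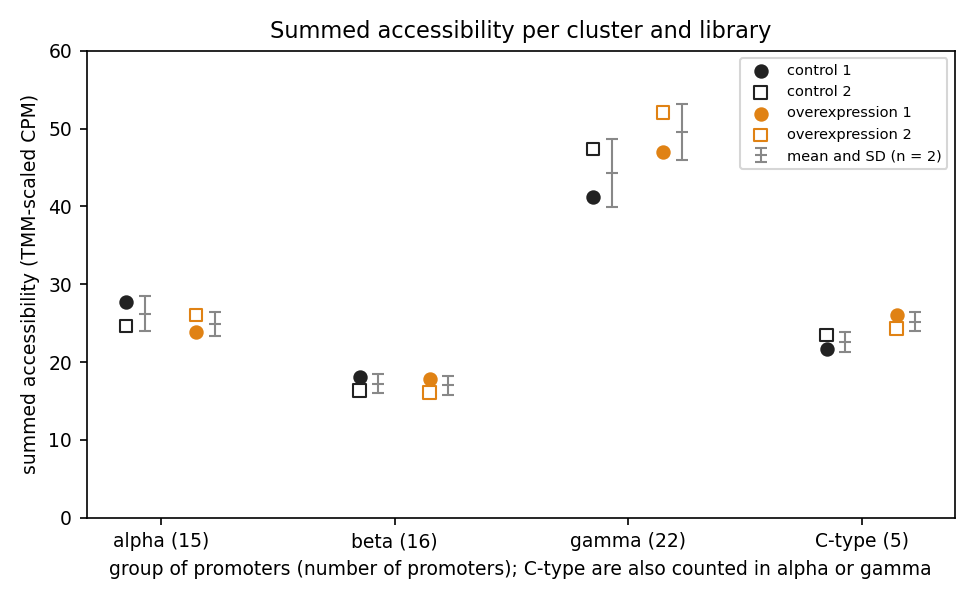
Summed accessibility (TMM-scaled CPM) of the alpha, beta, gamma and C-type promoters in each library (control black, overexpression orange, replicate 1 filled, replicate 2 open), with grey bars at the mean and SD of each group (n = 2). The groups overlap in the alpha, beta and gamma sums, and the C-type overexpression sums of 24.3 and 26.1 lie above the control sums of 21.7 and 23.5.

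Log2 fold changes in this comparison moved with abundance, and most members were of low abundance. Mean abundance was used to form 4 equal bins of the promoters tested. Among the 5852 promoters of the lowest bin the median log2 fold change was 0.38, whereas the 33 members there had a median of 0.042, and 26 of the 33 were below the median of the bin. In the next bin the median was 0.13 over all promoters, and the 4 members there, PCDHAC1, PCDHGA11, PCDHGC3 and PCDHGC4, had a median of 0.36. Removing the trend with abundance by loess scaling gave the 37 members a median of −0.33 with 10 above 0, while the median of all promoters was 0.0021. Under it, 4 members, PCDHB1, PCDHGB2, PCDHGB3 and PCDHGA7, were lower at an unadjusted p under 0.05, beside 5.17% of all promoters, 0 passed the threshold, and the smallest edgeR adjusted p was 0.372. The sign of the members' median thus turned with the scaling.

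Control accessibility was set beside GC content over the 47 members with a sequence. Pearson's r across these promoters was 0.58 and Spearman's rho 0.21. Without the 4 C-type promoters r was 0.070 and rho −0.022 (43 promoters), so the relation rested on the C-type genes. The points share 2 control libraries and are not independent replicates. Within the C-type genes PCDHAC2, with 63.0% GC, had 2.24 CPM, below PCDHGC3 with 59.0% GC and 6.04 CPM.

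**Figure D5:**
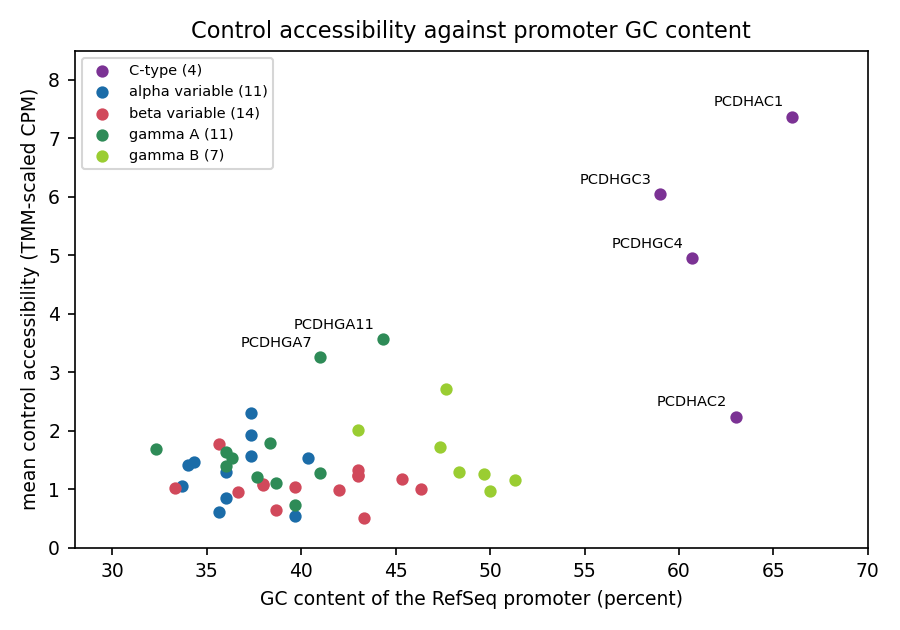
Mean control accessibility (TMM-scaled CPM, n = 2) against GC content (percent) of the RefSeq promoter for 47 clustered protocadherin promoters, coloured by type. The 4 C-type promoters lie at 59.0% GC or more, while the 43 others lie between 32.3% and 51.3% GC and at or below 3.57 CPM.

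The surroundings of the clusters were more accessible than the clusters. Of the 10 promoters before the first member, 9 lay above the median nuclear promoter, and of the 10 after the last, 6 did, with median control levels of 21.0 and 17.1 CPM. None of the 19 tested passed the threshold in either direction by edgeR. At an unadjusted p under 0.05 there were 2, beside 8.66% of all promoters tested higher and 8.57% lower. Inside the clusters 7 promoters belonged to other genes or pseudogenes, of which only TAF7, a subunit of the general transcription factor TFIID, lay above the median nuclear promoter. TAF7 had 10.8 and 8.65 CPM in control and 10.3 and 8.91 CPM in overexpression (log2 fold change −0.01, SE 0.20, edgeR adjusted p = 0.986). The pseudogenes PCDHB17P, PCDHB18P, PCDHB19P and PCDHGB8P had control means from 1.00 to 1.47 CPM, within the range of the beta genes.

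Genes that act on this locus or with its products were examined as lists. Of 26 promoters of known regulators of the locus (CTCF, cohesin and its loaders, DNA methylation and H3K9 methylation enzymes, SMCHD1 and others), all were tested, 0 rose and 1 fell, STAG1, a cohesin subunit. STAG1 had 49.4 and 51.7 CPM in control and 37.8 and 35.6 CPM in overexpression (log2 fold change −0.45, SE 0.11, edgeR adjusted p = 0.00897). The groups did not overlap, but the adjusted p was 0.314 under loess scaling and from 0.0492 to 0.158 with 1 library left out. Of the 26, 23 had log2 fold changes below 0, with a median of −0.17, in a list of abundant promoters, and the medians of all promoters in the 2 highest bins of abundance were −0.056 and −0.12. CTCF itself had 40.1 and 44.1 CPM in control and 32.4 and 34.3 CPM in overexpression (log2 fold change −0.34, SE 0.12, edgeR adjusted p = 0.0830), short of the threshold.

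Protocadherins outside the clusters, each with its own promoter and no promoter choice, were mostly open in these cells. Of 12 listed, 10 lay above the median nuclear promoter, with PCDH9 at 96.5 CPM, and of 11 tested 0 passed the threshold. PCDH10, which had the smallest p of that list, had 31.3 and 30.6 CPM in control and 27.2 and 22.3 CPM in overexpression (log2 fold change −0.29, SE 0.13, edgeR adjusted p = 0.208). Classical cadherins gave 0 of 15 past the threshold, with the smallest p at CDH4 (log2 fold change 0.55, SE 0.19, edgeR adjusted p = 0.0873). Partners of protocadherin signalling, such as the kinases PTK2 and PTK2B, which the cytoplasmic part of clustered protocadherins inhibits, and the WAVE complex, gave 0 of 12, with the smallest p at CYFIP2 (log2 fold change −0.45, SE 0.18, edgeR adjusted p = 0.165). At an unadjusted p under 0.05 by edgeR there were 7 of 26 regulators and 1 of 11 protocadherins outside the clusters. There were also 3 of 15 classical cadherins and 2 of 12 signalling partners. Of all promoters tested, 8.66% were higher and 8.57% lower at that level.

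The lists for the check of the cell type moved as follows. The embryonic kidney line genes gave 0 of 10 past the threshold, with the smallest p at KRT8 (log2 fold change 0.59, SE 0.23, edgeR adjusted p = 0.133). Of the markers of other cell types 8 were tested, all 8 had log2 fold changes above 0 with a median of 0.34, and 1 rose, KRT14, a keratin of basal epithelium. KRT14 had 2.49 and 2.21 CPM in control and 4.66 and 6.51 CPM in overexpression (log2 fold change 1.16, SE 0.32, edgeR adjusted p = 0.0218), and its adjusted p was 0.301 under loess scaling and from 0.0772 to 0.275 with 1 library left out. These 8 were promoters of low or middle abundance, and their part in the values of the clustered protocadherins was not tested.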

How the data were processed

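ATAC-seq was performed on HEK293T cells in 2 control (lipofectamine) and 2 MORC2 overexpression libraries. By the study's methods, the authors trimmed the reads, aligned them with bowtie2 to T2T-CHM13, kept pairs of mapping quality 30 or more, and removed duplicates with Picard. They counted fragment midpoints in 250 bp windows across the genome and summarised window results to promoters of 2 kb. How the promoter table itself was counted is not stated. The deposited table held raw whole-number counts per Entrez gene, without normalisation. That it covers the whole 2 kb is an assumption. The peak lists were not used, because the gene table and promoter sequences are of GRCh38.p14 and the peaks of another assembly.

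Names were matched by Entrez identifier (28763 of 28775). Promoters were filtered with filterByExpr, scaled by TMM and compared by edgeR 4.0.16 in R 4.3.3 with a two-sided quasi-likelihood F-test in its legacy form, without covariates, with adjustment over all promoters and a threshold of 0.05. Library sizes were kept at the totals before the filter. A first run summed them after it, and the setting was changed once its calls had been seen, to follow the earlier processing of these data. SEs came from the same fit and 95% intervals used 1.96 SE. Total counts were 3734519 to 10255182 per library. The limit on a count of 0 covers counting error only and not the spread between libraries. The fit was tested on simulated data. Named members were those with an unadjusted p under 0.05, the 5 highest and the 3 lowest tested in control, the C-type genes and PCDHB1, and those with the most and least spread between replicates. In the lists, genes past the threshold or else the one with the smallest p were named. CTCF, VIM, EYA1, PAX2, KRT18, NEFM, APOA2, MYOD1, PTPRC, ALB, PCDH9, TAF7, the pseudogenes, PCDHA1 and PCDHGB2 were named after their values were seen. PCDHB3 and PCDHGA2, whose stretches around the box are given, came under none of these rules. The members and lists were chosen with earlier results of these data known. Alternatives used DESeq2 1.42.0 and limma 3.58.1.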

Additional observations from a re-analysis of the deposited data

How the results depend on the processing

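No member passed the threshold under any alternative but library totals, under which 9 fell (PCDHA4, PCDHAC1, PCDHB1, PCDHB16, PCDHGB2, PCDHGB3, PCDHGA6, PCDHGA7 and PCDHGB7), as did 69.5% of all promoters, and no alternative gave a member that rose. Members of 17, 13, 7 and 4 median counts left wide errors, and the fits that leave out 1 library assume that the lone library of a group varies like the other group. DESeq2 gave the members no adjusted p. Medians of log2 fold changes moved with the settings as follows, and causes were not tested except where the number of members tested changed with the filter.

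With library totals the medians were −0.74 for all members, −0.81 for alpha, −0.65 for beta and −0.68 for gamma promoters, beside a median of −0.78 over all promoters. The sign turned for PCDHA5 (−0.69), PCDHA13 (−0.36), PCDHAC2 (−0.74), PCDHB12 (−0.074), PCDHGA11 (−0.30), PCDHGC3 (−0.52), PCDHGC4 (−0.36) and PCDHGC5 (−0.037). With upper-quartile scaling the members' median was 0.14, that of alpha promoters 0.066, and PCDHA8 turned to 0.046. With loess scaling the medians were −0.33, −0.39 for alpha, −0.24 for beta and −0.26 for gamma promoters, and PCDHA5 (−0.27) and PCDHAC2 (−0.33) turned. Without a filter all 54 were tested, with medians of −0.043, −0.10 for alpha and −0.052 for beta promoters. At least 10 counts in every library left 6 members with a median of 0.38 (1 alpha promoter at −0.28, gamma 0.46), and a mean count of at least 50 left 2, PCDHAC1 at −0.24 and PCDHGC3 at 0.36. The median was 0.14 with limma-voom. Without mitochondrial promoters it was −0.095 for alpha and 0.34 for beta promoters, over 31 members tested.

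The fits that left out control 1, control 2, overexpression 1 or overexpression 2 tested 38, 40, 49 and 49 members, against 37 in the main fit. Over these fits the median ranged from −0.079 to 0.023 for all members and from −0.25 to −0.054 for alpha promoters. It ranged from −0.46 to 0.080 for beta and from 0.028 to 0.24 for gamma promoters. PCDHA13 was tested only in the fits that left out an overexpression library, and PCDHA5 was not tested in the fit without control 2. The log2 fold change ranged from −0.46 to 0.72 for PCDHA5, from −6.87 (where the remaining overexpression library has 0 counts, so the value is set by the prior) to 0.59 for PCDHA8, from −0.24 to 0.55 for PCDHAC2 from −0.14 to 0.47 for PCDHGC3, from 0.039 to 0.91 for PCDHA13, from 0.18 to 0.66 for PCDHGC4, from −1.26 to −0.40 for PCDHB1 and from 0.059 to 1.00 for PCDHGA11. Deviations of same-numbered libraries correlated at 0.051 over 14976 promoters. With 2 libraries per group and counting error at this depth, that value cannot decide whether the numbers pair the libraries. The fit with a replicate block called 0 members, with a median of 0.084, and left STAG1 and KRT14 past the threshold, while PCDHGC5 was no longer under an unadjusted p of 0.05. Library sizes summed after the filter, an alternative added after seeing the data, called 272 promoters that rose and 307 that fell among all genes, against 272 and 305, with 0 members called and a members' median of 0.055.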
